A study of Mus musculus with 36 samples.

Results

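Interferon-stimulated genes (ISGs) were described in mouse knee joints 24 h after the anterior cruciate ligament (ACL) was injured, with and without an inhibitor of protein kinase C (PKC). They were chosen by name, as 45 genes of the antiviral and antigen-processing programmes that interferons switch on. All 45 were found in the count table with at least 10 reads summed over 9 libraries. Of these, 43 passed the filter on low counts and were tested, among 13823 genes tested of 55291 in the table. Mx2, with 56 reads in all, and Ifi44, with 75, did not pass it.

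The study used 36 libraries in 3 sets, of which the first set of 9 is described here. Its sham mice had no ACL injury, its vehicle mice had an ACL injury and were given saline, and its inhibitor mice had the same injury and were given a PKC inhibitor that the labels do not name. Each group held 3 biological replicates, and every joint was taken at 24 h. No label gave the strain, sex or age of the mice, the dose, or whether a library pooled joints. No group was uninjured and given the inhibitor. Its comparison with sham therefore joins injury and drug. The labels of these 9 libraries give the tissue as knee joint. The protocol of the other samples, not used here, names knee joint cartilage.

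Type I and type III interferons bind their receptors and activate the kinases JAK1 and TYK2, which phosphorylate STAT proteins, STAT2 among them. STAT2 acts with IRF9 in the complex ISGF3, which binds the interferon-stimulated response element (ISRE) of target promoters. Interferon gamma acts mainly through another element, the gamma-activated site (GAS), and through IRF1. Some ISG products sense, degrade or trap viral nucleic acids, and several act in antigen presentation. Many of these genes have a basal level in uninfected tissue.

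Promoter sequence from RefSeq (build GRCm38.p6) was found for 35 of the 45 symbols, in 41 windows that run from 250 bases before to 50 bases after a transcript start. Mx1, Mx2, Rtp4, Usp18, Parp9, Parp14, Ifi27, Zbp1, Dhx58 and Oas2 had no entry. The ISRE core, spelled GAAANNGAAA and searched on both strands, was present in 17 of the 41 windows (41.5%) and in 3.44% of all 32851 windows. The GAS, spelled TTCNNNGAA, which reads the same on both strands, was present in 10 of 41 (24.4%) and in 8.3% of all. Both were present in 5 members, and their matches overlapped in Bst2 and Ifitm3. In 13 members at least 1 ISRE core lay before the start, between 12 and 222 bases from it. Irf1, Irf7, Irf9 and Cmpk2 were among the 18 members without this core in the window. The stretches below run 5′ to 3′ on the gene's strand, and capitals mark ISRE core matches on either strand. They are shown for the member that passed the test (Stat2), for the member with 3 overlapping cores and the second highest level per kb (Isg15), for 2 pairs of neighbours whose transcripts share stretches, so that their reads are hard to tell apart, and for 2 guanylate-binding protein genes and Rsad2, described further on.
Stat2 (chr10:128270256-128270305, plus strand): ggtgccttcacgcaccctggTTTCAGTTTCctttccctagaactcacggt
Isg15 (chr4:156200855-156200916, minus strand): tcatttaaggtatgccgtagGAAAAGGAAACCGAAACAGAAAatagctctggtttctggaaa
Ifit3 (chr19:34583353-34583436, plus strand): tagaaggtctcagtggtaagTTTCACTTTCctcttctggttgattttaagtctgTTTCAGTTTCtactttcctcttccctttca
Ifit3b (chr19:34607749-34607832, plus strand): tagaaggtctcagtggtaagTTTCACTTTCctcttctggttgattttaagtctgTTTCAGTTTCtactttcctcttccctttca
Oas1a (chr5:120907526-120907565, minus strand): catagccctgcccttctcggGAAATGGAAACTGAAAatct
Oas1g (chr5:120887614-120887651, minus strand): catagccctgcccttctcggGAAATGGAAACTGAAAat
Gbp3 (chr3:142559979-142560034, plus strand): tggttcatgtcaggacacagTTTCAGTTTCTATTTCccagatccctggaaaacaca
Gbp7 (chr3:142530263-142530312, plus strand): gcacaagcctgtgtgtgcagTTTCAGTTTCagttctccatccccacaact
Rsad2 (chr12:26456543-26456592, minus strand): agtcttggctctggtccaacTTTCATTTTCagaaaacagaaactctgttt
The printed stretches of Ifit3 and Ifit3b were identical over 84 of 84 bases, and those of Oas1a and Oas1g over 38 of 38. Over whole windows at the best ungapped offset, identity was 75% (201 of 268 bases) for the first pair and 69.5% (207 of 298) for the second. These matches describe the letters of the windows. Binding to them was not measured.

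Libraries held 124 to 202 M counts, of which 93.1% to 98.6% fell on 11 genes of 7SL and U3 RNA, with the rest, 2.54 to 8.92 M counts, on all other genes. Reads that map to several places were counted at each, so 1 read can be counted at several of these 11 genes. Such repeat counting can raise both the totals and this share. Values below are normalised counts: reads scaled to a common library size with edgeR's TMM factors, listed for libraries 1, 2 and 3 of each group. One read was worth 0.390 to 1.89 normalised counts. The median member had 30 reads in vehicle library 1, the lowest, and 158 in inhibitor library 2, the highest. Chondrocyte markers were present in every library (9289 to 27490 normalised counts summed in sham), as were those of marrow cells and muscle, while the 12 T and NK cell markers together had 463 reads in the 9 libraries. Inhibitor library 1 stood apart in skeletal muscle markers, with 119830 normalised counts summed against 6567 to 55695 in the other 8 libraries.

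Per kilobase of exon, the scale on which genes can be compared, the members spanned more than 2 orders of magnitude. Ifitm3, which encodes a membrane protein that blocks virus entry, was the highest at 529 normalised counts per kb averaged over the 9 libraries. Isg15, a ubiquitin-like protein joined to other proteins, followed at 179, then Ifi27 at 76.6, the exonuclease gene Isg20 at 64.6 and Rsad2, which encodes viperin, at 61.5. The lowest were Mx1 at 2.68, Mx2 at 2.07 and Ifi44 at 1.19. Ifitm3 lay above every other member in each library, and Isg15 was within the range of Rsad2 in sham library 3 and in inhibitor library 1. From rank 3 down, neighbours in the order overlapped over the libraries.

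**Figure D1:**
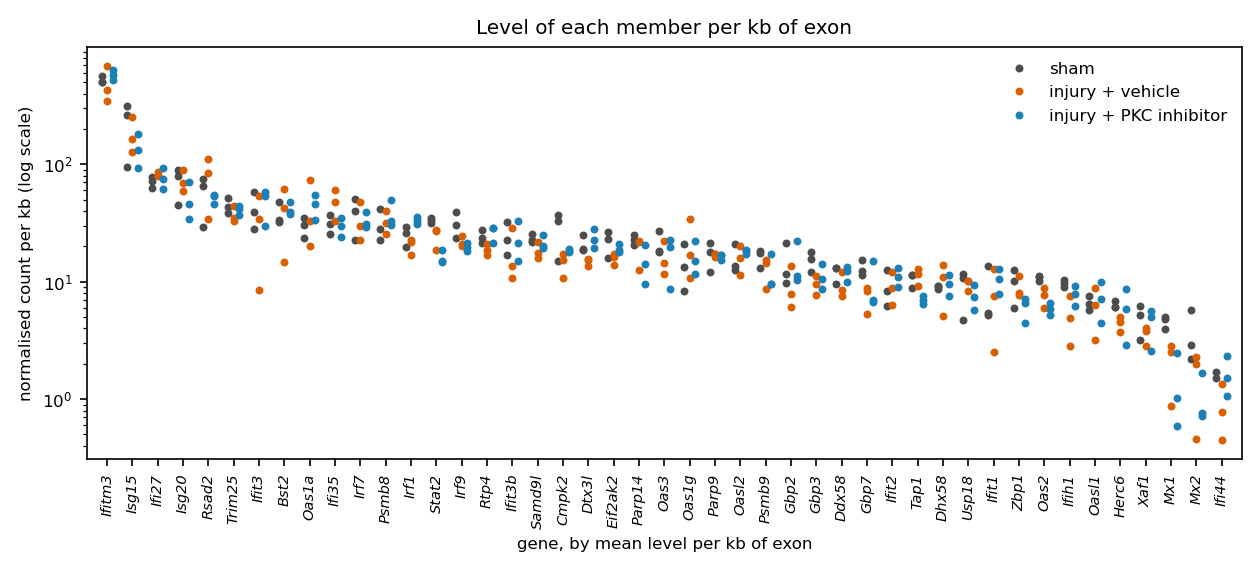
Normalised counts per kb of exon (log scale) of the 45 genes in each of the 9 libraries, ordered by their mean; 1 point per library, with sham, vehicle and inhibitor side by side. Ifitm3 (529 on average) and Isg15 (179) have the highest means, and the genes below them form a band in which neighbours overlap. In single libraries Isg15 reaches into that band. The sham library with no read of Ifi44 is not drawn.

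The first question was whether ISGs differed at 24 h after injury. No member passed the test between vehicle and sham, and most point estimates lay below 0: the median log2 fold change of the 43 was -0.30, with 31 below 0 and 12 above, against a median of -0.02 over all genes. The test was edgeR's quasi-likelihood test with Benjamini-Hochberg adjustment over all genes at 0.05, which called 0.304% of the 13823 genes here, and 0 of 43 members. At an unadjusted p below 0.05 it reached 4 members (Cmpk2, Ifih1, Irf9 and Gbp7, all lower), or 9.3% of them, against 8.28% of all genes. DESeq2 called 0 members and 1.13% of the genes it gave an adjusted p. In 10 members (23.3%) every vehicle library lay below every sham library, against 8.76% of all genes, and in 1 member, Ifi27, every vehicle library lay above, against 8.20%. Members share libraries and so do not count as independent, and no test was made of the 10.

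With the PKC inhibitor, compared with vehicle, no member passed the test either, and estimates lay on both sides of 0. The median was 0.13, with 25 above 0 and 18 below, against 0.04 over all genes. edgeR called 0.731% of all genes. Its unadjusted p was below 0.05 in 5 members (Irf1, Dtx3l, Stat2, Tap1 and Ifi35), or 11.6%, against 13.4% of all genes. DESeq2 called 0 members and 2.58% of all genes. The inhibitor libraries lay wholly above the vehicle libraries in Irf1, Dtx3l, Eif2ak2, Cmpk2 and Rtp4 (11.6% of members, 8.44% of all genes) and wholly below them in Stat2, Tap1 and Zbp1 (6.98%, against 10.4%). These shares are near those of all genes.

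Between the inhibitor and sham groups, 1 of 43 members passed the test: Stat2, which was lower. edgeR called 3.95% of all genes in this comparison, so 1 of 43 (2.33%) is a share near the background. The median over members was -0.13, with 27 below 0 and 16 above, against 0.03 over all genes. The unadjusted p was below 0.05 in 5 members (Stat2, Irf9, Oas2, Mx1 and Parp14, all lower), again 11.6%, against 18.0% of all genes. DESeq2 also called Stat2 alone, of 42 members, and 6.86% of all genes. Groups did not overlap in 6 members that were lower (14.0%, against 11.6%) and in 1 that was higher, Irf1 (2.33%, against 11.2%). Each pair of comparisons shares a group of libraries, so their values are given side by side and are not independent of each other.

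**Figure D2:**
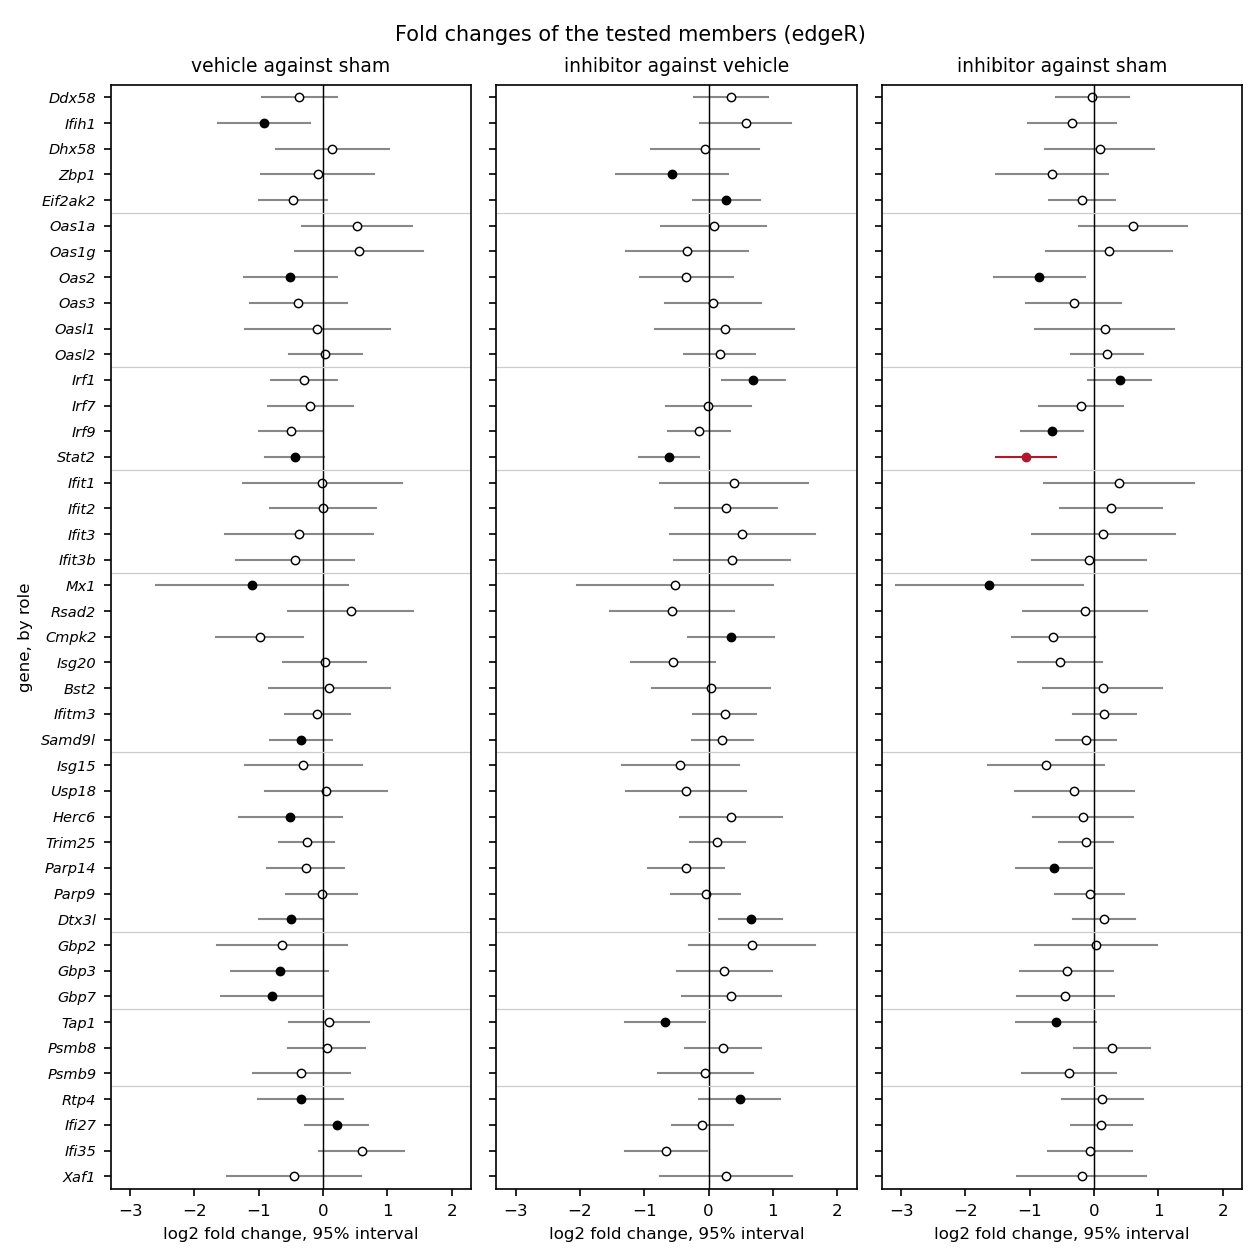
Log2 fold changes of the 43 tested members with 95% intervals (horizontal axis) in the 3 comparisons, genes by role on the vertical axis. The red point passed the adjusted threshold, filled black points have groups that do not overlap, and open points overlap. Stat2 between inhibitor and sham (-1.05) is the one red point; most points for vehicle against sham lie left of 0.

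**Figure D3:**
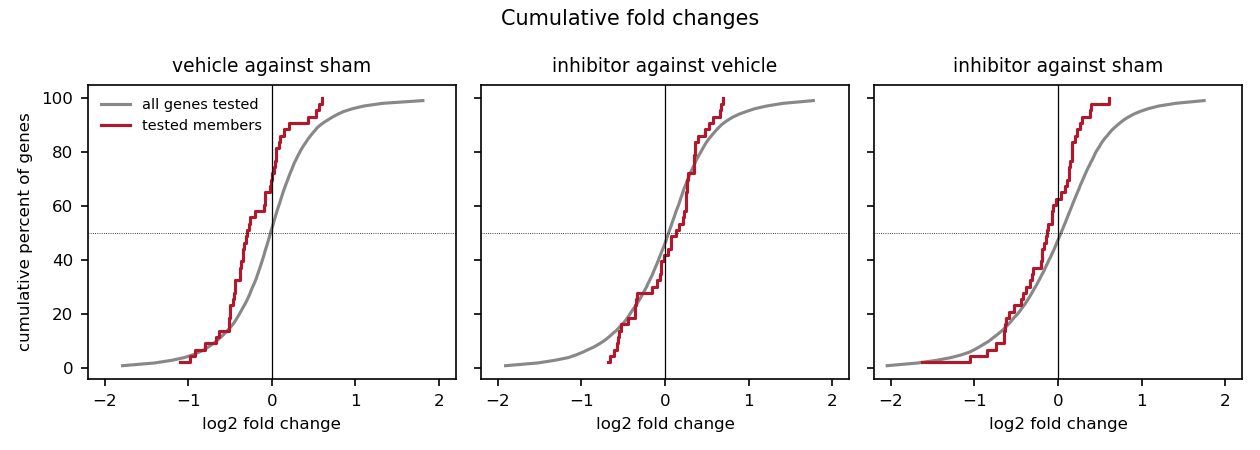
Cumulative percent of genes (vertical axis) by log2 fold change (horizontal axis) for the 43 tested members (red steps) and all 13823 genes tested (grey line, 1st to 99th percentile), in the 3 comparisons. The dotted line marks 50%; it is crossed by members at -0.30, 0.13 and -0.13 and by all genes at -0.02, 0.04 and 0.03.

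The intervals limit what these counts can show. For vehicle against sham, the 95% interval of 20 of 43 members lay within a 2-fold change in either direction. That of 35 excluded a 2-fold rise, and that of 26 a 2-fold fall. Between inhibitor and vehicle, a 2-fold rise was excluded for 29 members and a 2-fold fall for 32. Between inhibitor and sham, these numbers were 36 and 25. The 95% interval of a member reached a median of 0.72 log2 to each side in the first 2 comparisons and 0.71 in the third. Without the filter on low counts, all 45 members had medians of -0.31 (33 below 0), 0.19 (16 below 0) and -0.08 (27 below 0) in the 3 comparisons, in the order given, while the medians over all genes then fitted were 0, 0.11 and 0.11.

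Among the transcription factors that carry the interferon signal, 4 of 4 had estimates below 0 after injury and 0 passed. Stat2 (chr10:128270559-128292849, plus strand), a subunit of ISGF3, gave normalised counts of 208, 189 and 198 in sham, 111, 164 and 161 in vehicle and 111, 87.3 and 88.3 with the inhibitor. The 3 groups did not overlap: sham was highest, vehicle lay between, and inhibitor was lowest, with less than 1 normalised count between vehicle library 1 (111.3) and inhibitor library 1 (111.0). The log2 fold change was -0.44 (adjusted p = 0.625, SE 0.22) for injury, -0.61 (adjusted p = 0.224, SE 0.22) for inhibitor against vehicle and -1.05 (adjusted p = 0.0164, SE 0.22) for inhibitor against sham, a 2.07-fold lower level with a 95% interval of -1.52 to -0.59. DESeq2 gave an adjusted p of 0.00189 for the last. This call was lost in edgeR without sham library 1 (adjusted p = 0.0710), sham library 3 (0.0539) or inhibitor library 2 (0.0552), without inhibitor libraries 1 and 2 together (0.0875), and with a monocyte and macrophage covariate (0.203); the log2 fold change lay between -1.17 and -0.92 in each of the settings tried.

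Markers of some other cells, but not of all, were lower between inhibitor and sham, as Stat2 was. Of the monocyte and macrophage markers, 12 of 14 lay above 0 there, with Cd68 called higher. The skeletal muscle markers were divided, 6 above and 10 below 0, with none called. All 9 erythroid markers lay below 0, also with none called. Their sums were 5096 to 6889 normalised counts in sham, 3581 to 9173 in vehicle and 2339 to 4525 in inhibitor libraries. B lineage markers, of which 7 of 9 were tested, summed to 607 to 690 normalised counts in sham, 488 to 513 in vehicle and 279 to 419 in inhibitor libraries, the same order without overlap, with Cd79a, Cd79b and Cd22 among those lower between inhibitor and sham. Leaving out 1 library at a time kept Cd22 past the threshold in 9 of 9 cases, Cd79a in 2 and Cd79b in 1. Of the 13 neutrophil markers, 6 (Ltf, Camp, Ngp, Mpo, Elane and Prtn3) were lower in that comparison, with sums of 16162 to 22208 in sham, 8740 to 11264 in vehicle and 8702 to 19049 in inhibitor libraries. Of 13 chondrocyte markers, 4 (Col2a1, Col9a1, Col11a2 and Comp) were lower, with sums of 9289 to 27490, 8904 to 11619 and 2039 to 5514. Without 1 library at a time, Col9a1 held in 9 of 9 fits, Col2a1 in 3, Col11a2 in 2 and Comp in 1. All 4 of these calls were lost with the 2 groups alone or with the macrophage covariate. Of the neutrophil calls, Ltf, Camp, Mpo and Prtn3 held in 9 of 9 such fits, Elane in 8 and Ngp in 7. The macrophage covariate also lost Cd79a, Cd79b, Cd22, Ngp, Mpo, Elane and Prtn3, and kept Ltf and Camp. With the 2 groups alone, Cd79a, Cd79b, Ngp and Elane were lost as well. edgeR's calls in either direction were 3.95% of all genes in that comparison. No gene of these lists was at 0 in all libraries. The part of such cells in the values of Stat2 was not tested. In bulk tissue, fewer cells of a type and less RNA per cell cannot be told apart.

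Irf9 (chr14:55603571-55610030, plus strand), the DNA-binding part of ISGF3, gave normalised counts of 209, 163 and 126 in sham, 113, 109 and 131 in vehicle and 106, 98.2 and 116 with the inhibitor. The inhibitor libraries lay below all sham libraries, and the vehicle libraries overlapped with both. Its log2 fold change was -0.50 (adjusted p = 0.581, SE 0.23) for injury and -0.65 (adjusted p = 0.127, SE 0.23) for inhibitor against sham; 2.28% of its exon bases lie in Rnf31, so a few reads can be shared. Irf1 (chr11:53770014-53778374, plus strand), a factor induced by interferon gamma and by inflammatory signals, had its highest values with the inhibitor. It gave normalised counts of 79.1, 117 and 104 in sham, 89.7, 67.8 and 85.9 in vehicle and 122, 141 and 129.8 with the inhibitor, and the inhibitor libraries were above all 6 others. The difference from vehicle was 0.70 (adjusted p = 0.192, SE 0.23), unadjusted p = 0.00894, and did not pass; that from sham was 0.40 (adjusted p = 0.399, SE 0.23). Irf7, which amplifies interferon production, gave normalised counts of 192, 152 and 84.9 in sham, 84.7, 113 and 179 in vehicle and 110.3, 118 and 149 with the inhibitor. Its sham libraries alone covered almost the range of the others, and no comparison showed a difference beyond that spread (adjusted p 0.925 to 0.995, with 0.779 for inhibitor against sham).

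**Figure D4:**
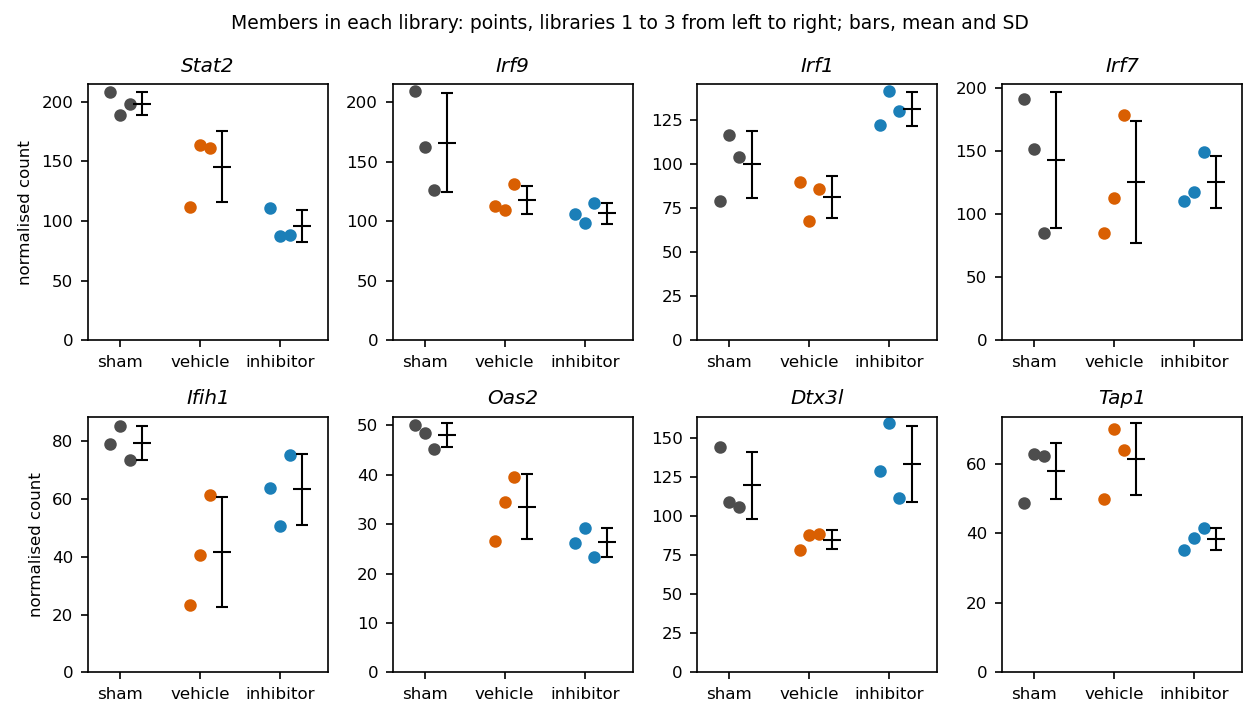
Normalised counts (vertical axis, from 0) of 8 members in the 3 groups; coloured points are libraries 1 to 3 from left to right, and the black mark beside them is the group mean with its SD (n = 3). Stat2 is highest in sham (189 to 208), intermediate in vehicle and lowest with the inhibitor (87.3 to 111), without overlap. Irf1 is highest with the inhibitor, above all other libraries. Dtx3l is lowest in vehicle, and its inhibitor and sham libraries overlap.

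Sensors of viral RNA and DNA had estimates below 0 after injury in 4 of 5, and none passed in any comparison. Ifih1, which encodes the long double-stranded RNA sensor MDA5, gave normalised counts of 79.1, 85.2 and 73.5 in sham, 23.3, 40.4 and 61.4 in vehicle and 63.8, 50.6 and 75.3 with the inhibitor. Every vehicle library lay below every sham library, vehicle library 1 lowest, and the inhibitor libraries overlapped with both groups. Its log2 fold change was -0.92 (adjusted p = 0.391, SE 0.34) for injury and 0.58 (adjusted p = 0.482, SE 0.33) for inhibitor against vehicle. Eif2ak2, the kinase PKR that halts translation on double-stranded RNA, gave normalised counts of 135, 118 and 81.1 in sham, 71.4, 83.2 and 88.7 in vehicle and 92.3, 95.4 and 108 with the inhibitor. The inhibitor libraries were above all vehicle libraries by a small margin, at a log2 fold change of 0.27 (adjusted p = 0.661, SE 0.24), and sham libraries spread over both. Ddx58, which encodes RIG-I, gave normalised counts of 93.02, 93.1 and 67.9 in sham, 53.2, 59.4 and 84.6 in vehicle and 94.5, 70.5 and 86.97 with the inhibitor, and its groups overlapped throughout. Zbp1, a sensor of Z-form nucleic acids, gave normalised counts of 20.9, 44.6 and 35.8 in sham, 28.2, 27.3 and 39.6 in vehicle and 15.8, 24.9 and 23.4 with the inhibitor. Its inhibitor libraries were below all vehicle libraries, at a log2 fold change of -0.57 (adjusted p = 0.577, SE 0.41). Dhx58 (LGP2), a regulator of the other RNA sensors, had adjusted p values of 0.937 to 0.969.

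The 2-5A synthetases, which give this gene family its name, make the second messenger that switches on RNase L. The activity of each member's product was not measured. The 6 family members were divided, 3 above and 3 below 0 after injury, and none passed in any comparison. Oas2, at chr5 with its relatives Oas1a, Oas1g and Oas3 (chr5:120730333-120907521), gave normalised counts of 50, 48.5 and 45.3 in sham, 26.6, 34.5 and 39.6 in vehicle and 26.3, 29.2 and 23.4 with the inhibitor. Both injured groups lay below all sham libraries. Its log2 fold change was -0.51 (adjusted p = 0.746, SE 0.34) for injury and -0.85 (adjusted p = 0.180, SE 0.33) for inhibitor against sham. Oas3, the largest of the family, gave normalised counts of 191, 127 and 130.1 in sham, 81.4, 158 and 102 in vehicle and 60.8, 159 and 140.2 with the inhibitor, with overlap between all groups. Oasl2, a member of the family with ubiquitin-like domains, gave normalised counts of 87.2, 79.97 and 134 in sham, 73.1, 128 and 102 in vehicle and 116, 109 and 119 with the inhibitor, again with overlap. Oas1a and Oas1g, whose transcripts share 40.9% and 31.2% of their 100-base stretches with each other, had estimates of 0.53 and 0.56 after injury. Since multi-mapping reads were counted at every location, these 2 values can rest on the same reads. In both, vehicle library 3 was the highest of the 9 libraries. Oasl1 had adjusted p values of 0.870 to 0.987.

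The IFIT proteins bind viral RNA ends, and their genes lie together at chr19:34550694-34650009. The SD of log2 values within groups was 0.88 for Ifit3 and 0.80 for Ifit1, the highest of the 43, then 0.58 for Ifit3b and 0.42 for Ifit2, against a median of 0.43 over members and 0.41 over all genes tested. Ifit3 gave normalised counts of 68.6, 102 and 49.03 in sham, 14.95, 59.4 and 94.1 in vehicle and 102, 52.2 and 93.5 with the inhibitor. Vehicle libraries 1 and 3 differed 6.29-fold, and all groups overlapped. Ifit3b, a related neighbour, gave normalised counts of 45.3, 64.2 and 33.9 in sham, 21.6, 27.3 and 57.3 in vehicle and 65.3, 30 and 42.8 with the inhibitor; 31.7% of the 100-base stretches of Ifit3 and 27.4% of those of Ifit3b are shared between them. All 4 had estimates at or below 0 after injury (-0.44 to -0.00) and above 0 for inhibitor against vehicle (0.27 to 0.52), with adjusted p values of 0.858 to 0.999 and 0.694 to 0.801. For Ifit1 the 95% interval after injury, -1.25 to 1.22, reached past a 2-fold change in both directions.

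Antiviral effectors were likewise divided, with 4 of 7 tested below 0 after injury and none called. Cmpk2, a nucleotide kinase gene next to Rsad2 on chromosome 12, gave normalised counts of 155, 136 and 62.2 in sham, 71.4, 64.2 and 45.01 in vehicle and 75.01, 79.1 and 75.3 with the inhibitor. Sham libraries 1 and 2 were high and sham library 3 lay within the vehicle range, so the groups overlapped, at a log2 fold change of -0.98 (adjusted p = 0.292, SE 0.32), unadjusted p = 0.00697. The inhibitor libraries were all above the vehicle libraries, at a log2 fold change of 0.35 (adjusted p = 0.664, SE 0.31). Rsad2, its neighbour on the other strand, gave normalised counts of 326, 283 and 126 in sham, 364, 483 and 147 in vehicle and 236, 233 and 199.9 with the inhibitor. Library 3 was the lowest in sham, in vehicle and in inhibitor, and the vehicle group held both the highest and one of the lower values, at a log2 fold change of 0.43 (adjusted p = 0.865, SE 0.43) for injury. Ifitm3 gave normalised counts of 337, 379 and 339 in sham, 292, 233 and 468 in vehicle and 389, 434 and 356 with the inhibitor, and its groups overlapped. Samd9l, a restriction factor of poxviruses, gave normalised counts of 123, 119 and 139.6 in sham, 86.4, 118 and 95.5 in vehicle and 134, 109 and 105 with the inhibitor, with every vehicle library below every sham library by a small margin, at a log2 fold change of -0.34 (adjusted p = 0.743, SE 0.23).

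Mx1, the dynamin-like antiviral GTPase, had the estimates farthest from 0 in both comparisons with sham, on 85 reads in all. It gave normalised counts of 15.1, 18.4 and 18.9 in sham, 3.32, 10.7 and 9.55 in vehicle and 2.25, 9.35 and 3.89 with the inhibitor. Both injured groups lay below all sham libraries, at a log2 fold change of -1.10 (adjusted p = 0.736, SE 0.70) for vehicle and -1.63 (adjusted p = 0.217, SE 0.68) for inhibitor. Vehicle library 1 held 2 reads and inhibitor libraries 1 and 3 held 3 each, so these sizes rest on few reads. Mx2, not tested, gave normalised counts of 10.5, 7.87 and 20.7 in sham, 1.66, 7.13 and 8.18 in vehicle and 6, 2.73 and 2.6 with the inhibitor. Isg20 and Bst2 (tetherin, which holds budding virus at the cell surface) had adjusted p values of 0.396 to 0.993 and 0.906 to 0.983 over the comparisons.

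Of the 7 genes for ISG15, ubiquitin ligases and ADP-ribosylation enzymes, 6 had estimates below 0 after injury and none was called. Dtx3l (chr16:35926511-35939151, minus strand), a ubiquitin ligase that works as a partner of PARP9, gave normalised counts of 144, 109 and 106 in sham, 78.1, 87.96 and 88.7 in vehicle and 129, 159 and 112 with the inhibitor. The vehicle libraries were below all 6 others, at a log2 fold change of -0.50 (adjusted p = 0.606, SE 0.24) for injury and 0.66 (adjusted p = 0.214, SE 0.23) for inhibitor against vehicle, unadjusted p = 0.0121. Parp9 starts within Dtx3l on the other strand and gave normalised counts of 87.2, 104 and 58.5 in sham, 83.1, 79.6 and 84.6 in vehicle and 81.8, 82.97 and 73.99 with the inhibitor. Its groups overlapped, at a log2 fold change of -0.05 (adjusted p = 0.958, SE 0.25) for inhibitor against vehicle. The difference between the pair was not tested. Parp14 (chr16:35832874-35871544, minus strand), a further ADP-ribosyltransferase, gave normalised counts of 231, 212 and 192 in sham, 116, 207 and 203 in vehicle and 191, 131 and 88.3 with the inhibitor. The inhibitor libraries were below all sham libraries, at a log2 fold change of -0.62 (adjusted p = 0.248, SE 0.28), and without inhibitor library 1 it passed (log2 fold change -0.92, adjusted p = 0.0399). Trim25, the ligase that acts on RIG-I, gave normalised counts of 298, 249 and 221 in sham, 201, 190.2 and 252 in vehicle and 252, 239.6 and 214 with the inhibitor, with overlap.

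Herc6, the ligase that attaches ISG15 in mice, gave normalised counts of 56.97, 56.4 and 64.1 in sham, 34.9, 46.4 and 42.3 in vehicle and 54, 26.9 and 80.5 with the inhibitor. The vehicle libraries were below all sham libraries, at a log2 fold change of -0.51 (adjusted p = 0.780, SE 0.38), and the inhibitor libraries spread over both; 13.7% of its exon bases lie in Gm45193 on the same strand. Isg15 gave normalised counts of 219, 184 and 66 in sham, 89.7, 176 and 115 in vehicle and 65.3, 92.3 and 127 with the inhibitor. Sham library 3 was at about the level of inhibitor library 1, so the groups overlapped, at a log2 fold change of -0.31 (adjusted p = 0.906, SE 0.41) for injury and -0.75 (adjusted p = 0.385, SE 0.41) for inhibitor against sham. Usp18, which removes ISG15 from proteins, had adjusted p values of 0.766 to 0.991.

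Guanylate-binding proteins, GTPases that attack vacuoles of intracellular microbes, had estimates below 0 in 3 of 3 genes after injury (-0.80 to -0.64) and above 0 in 3 of 3 for inhibitor against vehicle (0.25 to 0.67), none past the test. Gbp7 gave normalised counts of 69.8, 85.2 and 64.1 in sham, 49.8, 46.4 and 30.01 in vehicle and 84.8, 37.4 and 38.9 with the inhibitor. Every vehicle library was below every sham library, at a log2 fold change of -0.80 (adjusted p = 0.586, SE 0.37), unadjusted p = 0.045; 11.3% of its exon bases lie in Gm43802 on the same strand. Gbp3, shown above with 2 overlapping ISRE cores, gave normalised counts of 51.2, 39.3 and 58.5 in sham, 24.9, 30.9 and 36.8 in vehicle and 46.5, 34.7 and 28.6 with the inhibitor, also without overlap between vehicle and sham, at a log2 fold change of -0.67 (adjusted p = 0.655, SE 0.35). Inhibitor library 1 was the highest inhibitor library for Gbp2, Gbp3 and Gbp7, and the other 2 lay within the vehicle range. That library also held the high muscle markers given above, and their part in these values was not tested.

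Antigen processing genes showed no common direction. Tap1 (chr17:34187553-34197225, plus strand), a subunit of the peptide transporter that loads MHC class I, gave normalised counts of 48.8, 62.9 and 62.2 in sham, 49.8, 70.1 and 64.1 in vehicle and 35.3, 38.6 and 41.5 with the inhibitor. Its inhibitor libraries lay below all 6 others, at a log2 fold change of -0.68 (adjusted p = 0.321, SE 0.29) against vehicle, unadjusted p = 0.0331, and -0.59 (adjusted p = 0.309, SE 0.29) against sham. Psmb8, an immunoproteasome subunit next to it, gave normalised counts of 95.3, 140.3 and 77.3 in sham, 135, 107 and 85.9 in vehicle and 104, 166 and 110.3 with the inhibitor, with overlap in each comparison. Psmb9, another immunoproteasome subunit, shares 275 bases of its promoter window with Tap1 on the opposite strand, and its estimate was a log2 fold change of -0.05 (adjusted p = 0.970, SE 0.35) for inhibitor against vehicle. Against sham its estimate was -0.39, and that of Psmb8 was 0.28. The difference between the genes was not tested.

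In the remaining group, Rtp4, a Golgi chaperone, gave normalised counts of 50, 45.9 and 58.5 in sham, 39.9, 35.7 and 45.01 in vehicle and 45.8, 61.5 and 61.01 with the inhibitor. The vehicle libraries were below both other groups without overlap, at a log2 fold change of -0.35 (adjusted p = 0.828, SE 0.31) for injury and 0.48 (adjusted p = 0.510, SE 0.30) for inhibitor against vehicle; 13.9% of its exon bases lie in Gm45338 on the same strand. Ifi27, a mitochondrial and nuclear membrane protein, was the one member with every vehicle library above every sham library. It gave normalised counts of 114, 106 and 92.4 in sham, 118, 127 and 117 in vehicle and 109.5, 136 and 90.9 with the inhibitor, a difference of 0.21 (adjusted p = 0.873, SE 0.23). Ifi35 gave normalised counts of 44.2, 53.8 and 64.1 in sham, 56.5, 82.02 and 105 in vehicle and 60, 51.8 and 41.5 with the inhibitor. The vehicle libraries held the 2 highest values, and the estimates were 0.60 (adjusted p = 0.642, SE 0.31) for injury and -0.66 (adjusted p = 0.354, SE 0.30) for inhibitor against vehicle, unadjusted p = 0.0435. Xaf1, a regulator of cell death, had adjusted p values of 0.854 to 0.874 over the comparisons, and Ifi44, untested, gave normalised counts of 9.3, 10.5 and 0 in sham, 8.31, 4.75 and 2.73 in vehicle and 14.3, 9.35 and 6.49 with the inhibitor. The 0 in sham library 3 allows up to 3 reads, or 5.66 normalised counts, by counting error alone.

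**Figure D5:**
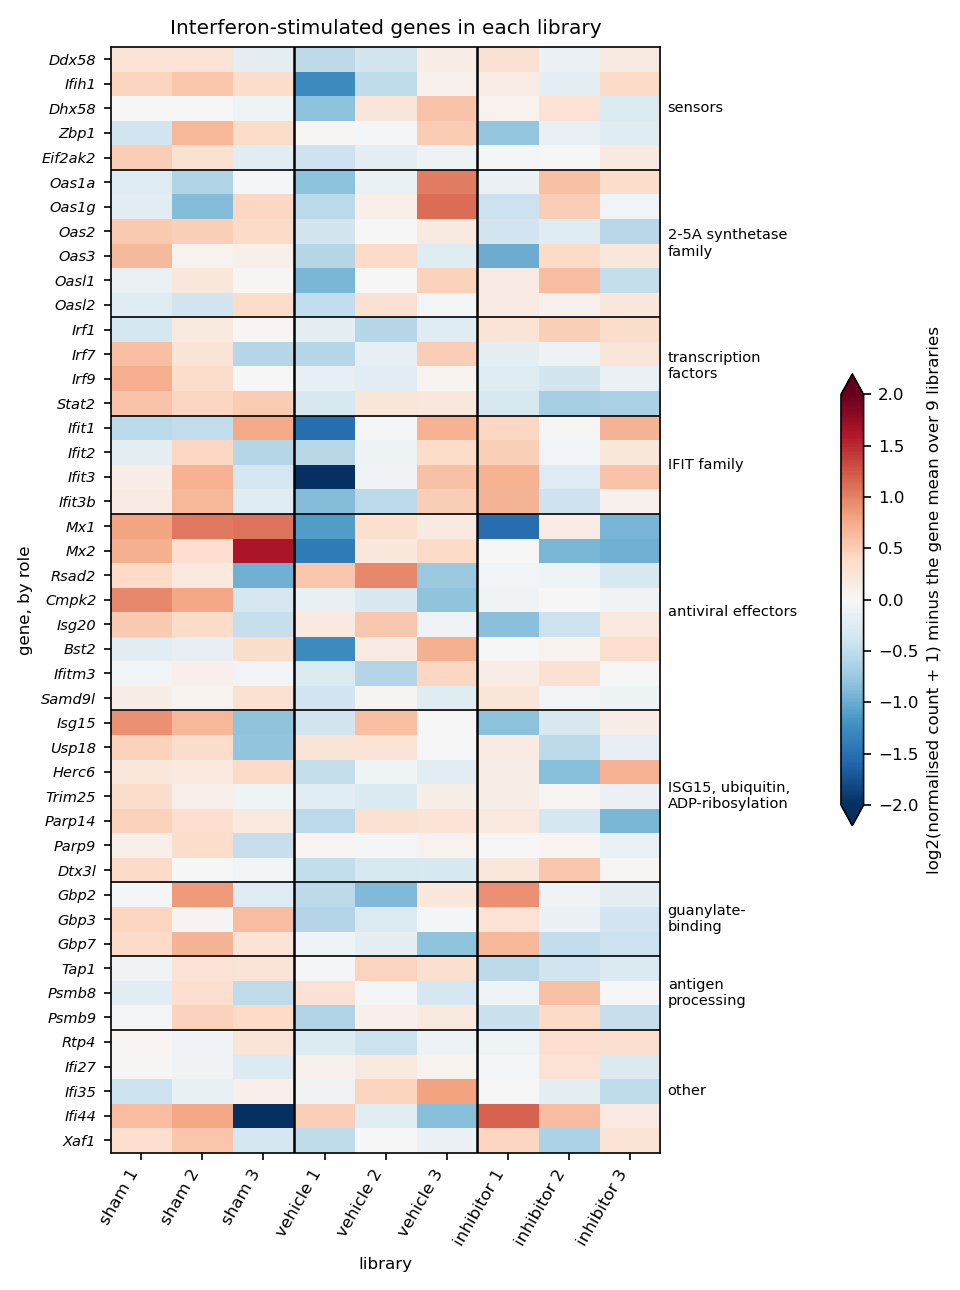
Log2(normalised count + 1) of each of the 45 genes minus its own mean over the 9 libraries (colour, red higher and blue lower, capped at 2), genes by role in rows and libraries in columns; black lines part groups and roles. Vehicle library 1 is blue in most rows, sham library 3 differs from the other sham libraries in several, and Stat2 turns from red in sham to blue in inhibitor.

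Single libraries weighed on the group values. Vehicle library 1 was the lowest of its group in 28 of 43 members (65.1%), against 35.0% of all genes tested, and vehicle library 3 the highest in 25 (58.1%), against 31.6%. Sham library 3 was the lowest of its group in 24 (55.8%), against 37.1%. In the inhibitor group each library was lowest in 13 to 15 members, close to an even share. Summed over the 45 genes, normalised counts were 4097 ± 505 in sham, 3599 ± 478 in vehicle and 3649 ± 75.6 in inhibitor (SD, n = 3), so the differences between groups were about the size of the spread within sham and vehicle. Vehicle library 1 also had the fewest counts outside the 11 dominant genes (2.54 M counts), and the part of depth in its position was not tested. Without it, the median for injury was -0.12 in place of -0.30, with 27 of 43 members below 0 in place of 31, and that for inhibitor against vehicle was -0.04 in place of 0.13, with 24 below 0 in place of 18. Without sham library 2 the injury median was -0.18, and without vehicle library 3 it was -0.42.

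Genes upstream of the members were measured beside them. All 9 interferon genes listed (Ifnb1, Ifna1, Ifna2, Ifna4, Ifnk, Ifne, Ifng, Ifnl2 and Ifnl3) had 0 reads in every library, which allows up to 3 reads, or 1.17 to 5.66 normalised counts depending on the library, by counting error alone. The 6 receptor genes were all detected and none passed in any comparison. Ifngr2 and Ifngr1, the chains of the interferon gamma receptor, were the 2 most abundant of them, Ifngr2 at normalised counts of 136, 155 and 153 in sham, 121, 114 and 139 in vehicle and 117, 192 and 134 with the inhibitor, and Ifngr1 at normalised counts of 119.8, 108 and 106 in sham, 116, 112 and 140.5 in vehicle and 153, 84.5 and 70.1 with the inhibitor. Both overlapped between groups. Among 10 kinases, STATs and negative regulators, edgeR called none, and DESeq2 called Socs3, a feedback inhibitor, higher for injury (adjusted p = 0.00240) and for inhibitor against sham (0.00596). The phosphatase gene Ptpn11 gave normalised counts of 599.98, 637 and 460.1 in sham, 593, 519 and 611 in vehicle and 725, 823 and 649 with the inhibitor, with the inhibitor libraries above all others, at a log2 fold change of 0.35 (adjusted p = 0.455, SE 0.19) against vehicle. Jak1, the kinase shared by all interferon receptors, gave normalised counts of 608, 540.1 and 453 in sham, 449, 538 and 378 in vehicle and 551, 695 and 511 with the inhibitor, with overlap between groups.

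Of 16 names for nucleic acid sensing upstream of interferon, 14 were in the table, 14 were tested, and 1 passed, lower, between inhibitor and sham. It was Irf3 (chr7:44997648-45002848, plus strand), the factor that starts transcription of interferon beta, with normalised counts of 113, 105 and 139.6 in sham, 99.7, 122 and 105 in vehicle and 60, 70.1 and 53.2 with the inhibitor. The inhibitor libraries were below all 6 others, at a log2 fold change of -0.94 (adjusted p = 0.0366, SE 0.24) against sham and -0.82 (adjusted p = 0.125, SE 0.24) against vehicle. The call held in 0 of 9 fits that left out 1 library (adjusted p at or above 0.05 in each, up to 0.133) and in 6 of 10 other settings, DESeq2 among them (0.0165). Summed B lineage and chondrocyte markers were also lowest in the inhibitor group, without overlap, as given above. The part of such cells in the Irf3 values was not tested. Myd88, the adaptor of most Toll-like receptors, and Irf8, a factor of myeloid and B cells, were the most abundant of the list. Myd88 gave normalised counts of 147, 157 and 82.98 in sham, 181, 144 and 172 in vehicle and 149, 272 and 121 with the inhibitor, and Irf8 gave normalised counts of 185, 186 and 183 in sham, 183, 127 and 165 in vehicle and 97.5, 205 and 170.04 with the inhibitor. Neither passed in any comparison.

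Markers of cells known for interferon responses were read as well. The 14 monocyte and macrophage markers summed to 2802 to 3562 normalised counts in sham, 2877 to 4421 in vehicle and 3205 to 5004 in inhibitor libraries, with 10 of 14 above 0 for injury and 12 of 14 for inhibitor against sham. edgeR called Cd68, higher between inhibitor and sham (also in 5 of 9 fits without 1 library). DESeq2 called Cd68, Cd14 and Mrc1 in that comparison (adjusted p of 0.00498, 0.00197 and 0.0418), Cd14 for injury (2.13e-05) and Mrc1 for inhibitor against vehicle (0.046). Siglech, the defining marker of plasmacytoid dendritic cells, the main source of interferon alpha in many infections, had 49 reads in the 9 libraries and was not tested. It gave normalised counts of 13.95, 7.87 and 9.43 in sham, 3.32, 3.57 and 2.73 in vehicle and 2.25, 2.34 and 12.98 with the inhibitor, so that vehicle lay below sham without overlap, on few reads. The 9 markers of these cells summed to 893 to 996 normalised counts in sham, 796 to 870 in vehicle and 835 to 1064 in inhibitor libraries. This sum was thus lower in vehicle than in sham, while the inhibitor range overlapped that of sham. The list had 8165 reads in all, against the 49 of Siglech, so other genes made up most of the sum. Irf8, given above as a factor of myeloid and B cells, is among them. The sum therefore does not measure plasmacytoid dendritic cells alone. The tested markers were divided after injury, with 2 above and 3 below 0. The part of these cells in the members' values was not tested. Of the list, 5 were tested and none passed in edgeR or DESeq2; Bst2, a member here, is 1 of them.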

How the data were processed

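Total RNA of mouse knee joints, depleted of ribosomal RNA, was read as 9 libraries in pairs of 100 bp (DNBSEQ-G400 sequencer), per the labels' protocols. The deposited values are raw counts of read pairs per gene name, made by the authors with featureCounts 2.0.1 for the reverse strand over exons of GENCODE M25, with multi-mapping reads and reads over more than 1 gene counted at each place, per the file headers. The submitters' processing notes name HISAT2, without a version, and mm10. Near-identical and overlapping genes can thus share reads. Columns were given to samples by name; their order differs from that of the recorded command. A further 27 columns, with codes that match no label, were not used.

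Counts were fitted with edgeR 4.0.16 in R 4.3.3: filterByExpr, TMM scaling, robust quasi-likelihood dispersions, 1 mean per group over the 9 libraries, two-sided F tests, Benjamini-Hochberg adjustment over 13823 genes at 0.05. SEs were derived from the fold change and F. The p-values rest on 1 dispersion per gene, estimated over all 9 libraries (3 per group) and moderated across genes. The group outside a comparison thus also weighs on its p-values. DESeq2 1.42.0, other scalings, no filter, no dominant genes, fewer groups, marker covariates, a replicate block and left-out libraries were alternatives. The scripts were tested on simulated counts for vehicle against sham. Of 100 genes changed 2-fold there, 23 were called, and of 100 changed 4-fold, 76 were called. An uncalled member may thus still differ. Coordinates are on mm10, counted from 1. Shared stretches of 100 bases were counted in GENCODE M21 transcripts, and promoters came from RefSeq (GRCm38.p6), read with pandas 2.3.3 and drawn with matplotlib 3.10.9 in Python 3.11.15.

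Values in every library are given for a member past the threshold in any comparison, for the 2 of highest mean CPM in each role, and for the 10 largest changes per comparison among members whose groups do not overlap; for pathway lists, for called genes and the 2 of highest CPM. Parp9, Isg15, Mx2 and Ifi44 are given beside them as well. Members and lists were chosen with earlier results of these data known. Some genes of the lists are not reported here.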

Additional observations from a re-analysis of the deposited data

How the results depend on the processing

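Over 19 alternatives per comparison, 0 members passed for injury against sham and 0 for inhibitor against vehicle. Between inhibitor and sham, 1 passed (Stat2), but 0 with the monocyte and macrophage covariate and 0 without inhibitor libraries 1 and 2 together (adjusted p = 0.0875 for Stat2); leaving out 1 library at a time gave 0 (without sham 1, sham 3 or inhibitor 2) to 2 (without inhibitor 1). Median log2 fold changes moved by less than the spread between libraries: leaving out 1 library gave -0.42 to -0.12, -0.04 to 0.24 and -0.26 to -0.07 for the 3 comparisons in the order of the report (lowest without vehicle 3, vehicle 1 and sham 3, highest without vehicle 1, vehicle 3 and sham 2), and the other alternatives -0.31 to -0.25, 0.02 to 0.19 and -0.18 to -0.08. Up to 8, 6 and 13 members changed sign in 1 alternative, none of them called. Other scalings changed no call of a member.

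The number of all genes called depended far more on the settings. For injury it was 42, and 155 in DESeq2, 262 without the filter, 291 with the 2 groups alone, 194 and 5 with the muscle and the macrophage covariate, 301 without inhibitor libraries 1 and 2, and 1 (without sham 1 or 2) to 234 (without inhibitor 1) leaving out 1 library. For inhibitor against vehicle it was 101, and 355 in DESeq2, 554 without the filter, 3 with the 2 groups alone, 317 with muscle, 20 without inhibitor libraries 1 and 2, and 0 (without vehicle 2) to 256 (without inhibitor 3). For inhibitor against sham it was 546, and in the same order 890, 1056, 198, 1186, 16 with macrophage, 174, and 141 (without sham 1) to 841 (without inhibitor 1). The causes were not tested.

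Replicate numbers are shared between groups, but same-numbered libraries did not deviate together more than others (correlations of -0.229 to 0.068 over 9 pairs, -0.158 to 0.192 for other pairs). With 3 libraries per group these values cannot exclude a pairing, and the main fit used none. With the replicate block, 0, 0 and 1 members passed, Stat2 had an adjusted p of 0.0332, the medians were -0.29, 0.19 and -0.12, and 24 genes were called for injury. Among the pathway and marker genes called, the block lost Irf3 (adjusted p = 0.0638, inhibitor against sham) and Ltf (0.0520, injury), and it gained Col2a1, Col9a1 and Col11a2 for inhibitor against vehicle (0.00946, 0.0129 and 0.0129). Depth limits all values: the median member had 30 to 158 reads per library.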

Other observations

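Among the negative regulators of the pathway, Socs3 and Socs1, feedback inhibitors of cytokine signalling through JAK kinases, had larger differences after injury than any interferon-stimulated gene; both were chosen after their values were seen. Socs3 gave normalised counts of 66.3, 79.97 and 75.4 in sham, 399, 204 and 299 in vehicle and 81.8, 425 and 225 with the inhibitor. Every vehicle library was above every sham library, at a log2 fold change of 2.02 (adjusted p = 0.289, SE 0.56) by edgeR, and inhibitor library 1 stood near the sham level. Socs3 was called for injury by DESeq2 (adjusted p = 0.00240), in 5 of 10 alternatives with that one included, and in 2 of 9 edgeR fits without 1 library. Socs1 gave normalised counts of 8.14, 6.56 and 9.43 in sham, 51.5, 23.8 and 16.4 in vehicle and 3.75, 16.8 and 15.6 with the inhibitor, with vehicle above sham in all libraries, at a log2 fold change of 1.91 (adjusted p = 0.350, SE 0.66) by edgeR. In edgeR's fit as described, neither passed; without the filter on low counts or with the muscle covariate Socs3 did (adjusted p of 0.00421 and 0.0413), and Socs1 passed in none of the 19 alternatives for that comparison.

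Ifnar1, a chain of the type I interferon receptor, was also chosen after its values were seen. It gave normalised counts of 96.5, 91.8 and 99.95 in sham, 126, 120.1 and 132 in vehicle and 81.8, 103 and 110.3 with the inhibitor, so that the vehicle libraries were above both other groups without overlap, the reverse of Rtp4 and Dtx3l. The differences were 0.39 (adjusted p = 0.671, SE 0.22) from sham and -0.36 (adjusted p = 0.493, SE 0.22) for inhibitor against vehicle by edgeR, and neither passed.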
